A study of Mus musculus with 7 samples.

Results

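The genes studied here encode the enzymes with which the absorptive cells of the small intestine rebuild triglyceride from absorbed lipid. They were the 10 genes listed in the deposited table as Mogat2, Dgat1, Dgat2, Agpat9, Agpat1, Agpat2, Agpat3, Lpin2, Lpin3 and Gyk, chosen by symbol and by enzyme role, out of 14795 genes in all. Agpat9 is the older symbol of Gpat3, and Gyk that of glycerol kinase, Gk. RNA was taken from the whole duodenum of male mice, 3 of genotype Ppara lox/lox and 4 of genotype Ppara I-KO, 1 library per mouse. The strain is given as C57BL/6 in the labels, and as a background mainly of C57BL6/J in the methods. Both groups carried the floxed Ppara allele. Ppara I-KO mice (lox/lox;Villin-Cre) also carried a Cre transgene under the Villin promoter, which is active in the intestinal epithelium and not in the muscle, immune or stromal cells of the gut wall, whereas the controls were littermates without Cre. By the methods of the study, the mice had been on a high-fat diet, with 60% of its energy from fat, for 8 weeks. By the sample labels, food was removed for 6 h and given back for 6 h before the duodena were collected. The methods instead give 5 h of fasting as the rule for mice of the study unless said otherwise, and do not name the feeding of these duodena. The labels are the record specific to these samples, and by them the mice were refed. The age at collection is not given in the sources used here. The comparison asks how the genes of triglyceride resynthesis differ when the epithelium lacks PPARα, a nuclear receptor that binds fatty acids and switches on genes of fatty acid oxidation and transport.

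Dietary triglyceride is split in the gut lumen into fatty acids and 2-monoacylglycerol, which enter the enterocyte and are joined again at the endoplasmic reticulum. In the monoacylglycerol route, which carries most of the lipid after a fatty meal, MGAT2 (Mogat2) adds an acyl chain to monoacylglycerol to give diacylglycerol. In the glycerol-phosphate route, glycerol is phosphorylated by glycerol kinase (Gyk) or glycerol phosphate is drawn from glycolysis, and GPAT3 (Agpat9) and the lysophosphatidate acyltransferases (Agpat1, Agpat2, Agpat3) add acyl chains to give phosphatidate, which the lipins (Lpin2, Lpin3) dephosphorylate to diacylglycerol. Both routes meet at the acyltransferases DGAT1 and DGAT2, which add the last chain, and the triglyceride is then packed into chylomicrons or held in cytosolic droplets.

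A library held between 20741379 and 25886323 reads on the genes of the table, and values are given as CPM (reads per 1e6 of an adjusted library size). The 10 genes had between 2239 and 22179 reads in a library, so that counting error was at most 2.1% of a value and the spread between mice set the precision. Ppara itself had 53.4, 49.3 and 63.2 CPM in lox/lox libraries and 33.0, 40.6, 47.5 and 69.9 CPM in I-KO libraries. The library labelled I-KO replicate 4 was thus above every lox/lox library. Values without it are given below for Dgat2, Agpat9, Agpat2 and the ratio of Agpat2 to Agpat3. Reads over the whole gene do not show whether the floxed part is missing. Enterocyte markers were abundant in all libraries, and their summed level (8 of 8 markers in the table) was between 39481 and 46744 CPM in lox/lox libraries and between 39246 and 51939 CPM in I-KO libraries, with between 50.5% and 61.4% of it from the apolipoprotein gene Apoa4. Adipocyte markers, of cells that also make triglyceride, summed to between 139 and 145 CPM and between 121 and 159 CPM (6 of 7 in the table). Most of this sum was Cidec, between 94.9 and 139 CPM, which enterocytes also express and which is among the droplet genes below. Adipoq, specific to adipocytes, was between 0.21 and 2.1 CPM, and Plin1 and Retn were below 1 CPM in each library. Pancreatic acinar markers (9 of 10 in the table) summed to 350.4 CPM in I-KO replicate 1 and 64.3 CPM in lox/lox replicate 2, and to at most 10.5 CPM in the others. Without I-KO replicate 1, the log2 fold change of Dgat2 (0.21 over all libraries) was 0.13 and that of Lpin2 (0.18) was 0.28, and without lox/lox replicate 2 that of Dgat2 was 0.06.

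All 10 genes were well expressed. Per kilobase of merged annotated exons, the mean over 7 libraries was 290.3 CPM per kb for Dgat1, 276 for Mogat2, 219 for Dgat2 and 129 for Agpat2. These 4 genes were at or above the 97.1 percentile of the 13285 tested genes with an annotated length. Agpat1 (63.6 CPM per kb) and Agpat9 (56.1) followed, then Lpin3 (29.8), Gyk (22.7) and Agpat3 (21.5), and Lpin2 was lowest with 13.7 CPM per kb, at the 75.0 percentile. Among neighbours in this order, the ranges over libraries overlapped for Dgat1 and Mogat2, Mogat2 and Dgat2, Agpat1 and Agpat9, Lpin3 and Gyk, and Gyk and Agpat3, and they did not overlap below Dgat2, Agpat2, Agpat9 and Agpat3. The order below and within the leading 4 depends on the gene length used. With the median length of coding transcripts, a choice made after the values were seen, the leading 4 were Dgat2 (511 CPM per kb), Dgat1 (469.9), Agpat2 (285) and Mogat2 (285), and the lowest was Lpin3 (32.3). The genes for MGAT2 and the DGATs were thus among the leading 4 with either length, and so was Agpat2 of the glycerol-phosphate route. The DGATs end both routes.

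None of the 10 genes passed the comparison of genotypes. Log2(CPM + 1) was fitted with limma for all 13399 genes that exceeded 1 CPM in 3 or more libraries, and p-values were adjusted over all of them. With an adjusted p of 0.05 as the threshold, 4 genes (0.0299%) were called among all those tested and 0 of the 10. At an unadjusted p of 0.05 the counts were 635 (4.74%) and 0 of the 10. Values of the genotypes did not overlap for 830 genes (6.19%) and for 1 of the 10, Agpat3. On the log2 scale, 8 of the 10 genes had a higher mean in I-KO and 2, Agpat2 and Gyk, a lower one, with a median difference of 0.112 beside 0.002 for all genes tested, of which 50.6% were higher. Leaving out lox/lox replicate 3 took the median of the 10 to 0.057 and the number higher to 6, leaving out I-KO replicate 3 took them to 0.075 and 6, and leaving out lox/lox replicate 2 took them to 0.065 and 7. Without lox/lox replicate 1 they were 0.125 and 8, and without I-KO replicate 4 they were 0.124 and 8. Without I-KO replicate 1 they were 0.089 and 7, and without I-KO replicate 2 they were 0.086 and 8. Each of the 10 differences had an adjusted p of at least 0.954, and the half-width of its 95% confidence interval had a median of 0.25. In whole duodenum, a lower or higher share of epithelial cells and a change of RNA per cell cannot be told apart.

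**Figure D1:**
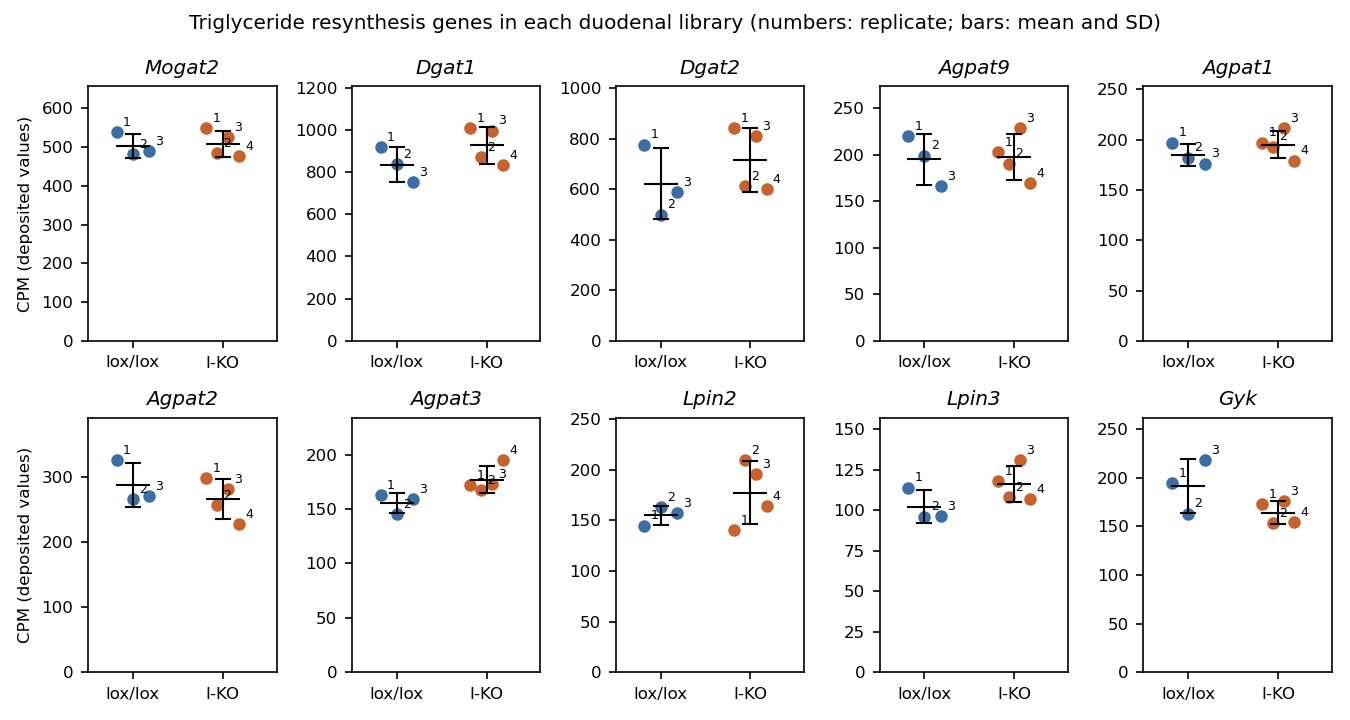
CPM of each of the 10 genes (y axis from 0) in the 3 Ppara lox/lox and 4 Ppara I-KO libraries, with points for mice numbered by replicate and bars for the mean and SD. Points of the genotypes overlap for 9 genes, and only for Agpat3 do the I-KO points, from 167 to 195 CPM, all lie above the lox/lox points, from 145 to 163 CPM.

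Mogat2, the enzyme specific to the monoacylglycerol route, had 539, 482 and 490.4 CPM in lox/lox libraries and 548, 484, 526 and 476 CPM in I-KO libraries. Means were 504 ± 30.5 CPM (SD, n = 3) and 509 ± 34.2 CPM (SD, n = 4), and the lowest and highest of all libraries were both I-KO. The log2 fold change was 0.01 with a standard error of 0.09 (adjusted p = 0.996, limma). Its 95% interval, from -0.19 to 0.21, is a fold of 0.879 to 1.16. Mogat2 lies on chromosome 7 at 99219084 to 99238619 (GRCm38, minus strand). Dgat2 lies next to it on the same strand, at 99153658 to 99182719, with 36.4 kb and 0 annotated genes between them.

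Dgat1, which encodes the main triglyceride-forming enzyme of the mouse enterocyte endoplasmic reticulum, had 918, 837 and 751 CPM in lox/lox libraries and 1006, 871, 996 and 831 CPM in I-KO libraries. I-KO replicates 1 and 3 were above all lox/lox libraries, while replicates 2 and 4 were within their range. The log2 fold change was 0.15 with a standard error of 0.11 (adjusted p = 0.954, limma, and p = 0.257 in the exact two-sided permutation test, which cannot go below 0.0286 with 3 and 4 libraries).

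Dgat2 encodes an unrelated enzyme of the same reaction that also works at lipid droplets. It had 776, 499.5 and 589.7 CPM in lox/lox libraries and 840.1, 613, 809 and 599 CPM in I-KO libraries. Libraries of 1 genotype differed by up to 1.55-fold (lox/lox) and 1.4-fold (I-KO), more than the 1.15-fold difference of the means, and lox/lox replicate 1 was above 2 of the 4 I-KO libraries. The log2 fold change of 0.21 (standard error 0.18, 95% interval -0.19 to 0.61, adjusted p = 0.954, limma) was 0.06 without lox/lox replicate 2 and 0.38 without lox/lox replicate 1. Without the library labelled I-KO replicate 4, it was 0.29. Dgat2 thus had the widest interval of the 10 genes, and a fold of up to 1.53 remained within it.

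In the glycerol-phosphate route, Agpat9 had 219.8, 199 and 166 CPM in lox/lox libraries and 203, 190.4, 228 and 169 CPM in I-KO libraries. GPAT3, its product, adds the first acyl chain to glycerol phosphate. The lowest lox/lox and the lowest I-KO library were almost level, and the log2 fold change was 0.02 with a standard error of 0.13 (adjusted p = 0.996, limma). It was 0.09 without the library labelled I-KO replicate 4. Of the exonic bases of Agpat9 (chromosome 5, 100845713 to 100899102, plus strand), 30.04% are shared with a gene annotated on the opposite strand, 4930458D05Rik, and 7.4% with Gm42987 on the same strand. The strand setting of the read counting is not given in the sources used here, so the share of reads from these genes cannot be told apart. For the other 9 genes, the largest overlap with the exons of another gene was 3.37%, between Agpat1 and Egfl8.

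The 3 lysophosphatidate acyltransferases, which add the next chain, did not differ in 1 direction. Agpat1 had 197, 182 and 176 CPM in lox/lox libraries and 197, 193, 211 and 179 CPM in I-KO libraries, a log2 fold change of 0.08 (standard error 0.09). Agpat2, the gene mutated in a congenital lipodystrophy in humans, had 326, 266 and 271 CPM in lox/lox libraries and 298, 257, 281 and 227 CPM in I-KO libraries. Its lowest libraries were both I-KO and its highest was lox/lox, and the log2 fold change was -0.12 with a standard error of 0.12 (adjusted p = 0.954, limma). It was -0.02 without lox/lox replicate 1 and -0.04 without the library labelled I-KO replicate 4. Agpat3, whose product acts on several lysophospholipids, had 163, 145 and 159 CPM in lox/lox libraries and 172, 167, 173 and 195 CPM in I-KO libraries. Each I-KO library was above each lox/lox library, by 1.14-fold between means. The difference nonetheless failed the tests. The log2 fold change was 0.18 with a standard error of 0.09 (95% interval -0.02 to 0.38, unadjusted p = 0.0708, adjusted p = 0.954, limma, and p = 0.0571 in the exact permutation test).

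The lipins, phosphatidate phosphatases that also act in the nucleus, had the same log2 fold change, 0.18, with unlike patterns over mice. Lpin2 had 145, 163 and 157 CPM in lox/lox libraries and 140.1, 209.7, 196 and 164 CPM in I-KO libraries. The spread of Lpin2 was larger in I-KO, with a coefficient of variation of 17.8% against 6.19%, and both the lowest and the highest library were I-KO. Lpin3 had 114, 96.0 and 96.6 CPM in lox/lox libraries and 118, 108, 131 and 107 CPM in I-KO libraries, so that only lox/lox replicate 1 was within the I-KO range. Standard errors were 0.14 for Lpin2 and 0.11 for Lpin3, each with an adjusted p of 0.954 (limma).

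Gyk, whose product makes glycerol phosphate from free glycerol, had 194, 163 and 218 CPM in lox/lox libraries and 173, 153, 176 and 154 CPM in I-KO libraries. Its I-KO mean, 164 ± 12.2 CPM (SD, n = 4), was 0.855 of the lox/lox mean, 192 ± 27.6 CPM (SD, n = 3), the lowest ratio of the 10 genes. Lox/lox replicate 2 was within the I-KO range and the other two lox/lox libraries were above it. The log2 fold change was -0.22 with a standard error of 0.11 (95% interval -0.47 to 0.04, unadjusted p = 0.0877, adjusted p = 0.954, limma, and p = 0.143 in the exact permutation test).

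**Figure D2:**
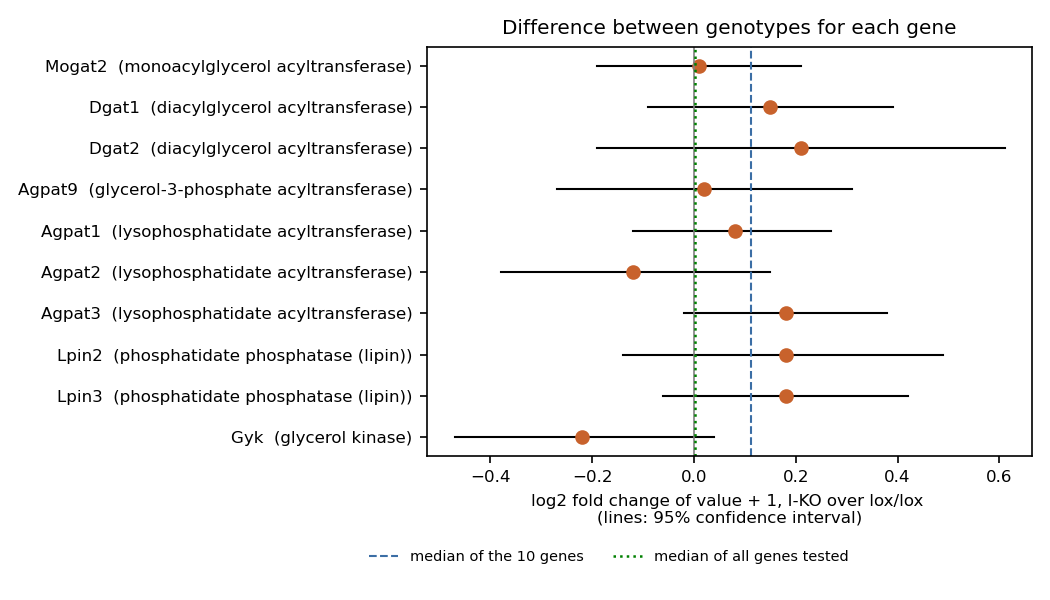
Log2 fold change of CPM + 1, I-KO over lox/lox, for each of the 10 genes with its 95% confidence interval (lines), beside the median of the 10 genes (0.112, dashed) and of all genes tested (0.002, dotted). All 10 intervals include 0, with Agpat3 and Gyk nearest to leaving it on opposite sides.

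Because reads of both genes of a pair come from the same library, ratios between enzymes do not depend on library scaling. Ratios were taken for 5 pairs and compared only between genotypes, since transcripts differ in length. Dgat1 to Dgat2 was 1.18, 1.67 and 1.27 in lox/lox libraries and 1.2, 1.42, 1.23 and 1.39 in I-KO libraries, a log2 difference of -0.06. The ratio of Mogat2 to Agpat9, the first acyltransferases of the routes, was 2.45, 2.42 and 2.96 against 2.7, 2.54, 2.31 and 2.82, a log2 difference of -0.01. For Lpin2 to Lpin3 the ratio was between 1.27 and 1.7 in lox/lox and between 1.19 and 1.95 in I-KO libraries, with a log2 difference of -0.001. The exact permutation p of these 3 pairs was at least 0.771, and 1.0 after adjustment over the 5 pairs. For the pairs with Agpat2 the difference was larger and also failed the test. Agpat1 to Agpat2 was 0.61, 0.69 and 0.65 in lox/lox libraries and 0.66, 0.75, 0.75 and 0.79 in I-KO libraries, and 3 of 4 I-KO libraries were above all lox/lox libraries (log2 difference 0.19, exact permutation p = 0.0857, adjusted p = 0.285). Agpat2 to Agpat3 was 2.0, 1.83 and 1.71 against 1.73, 1.54, 1.63 and 1.16, and 3 of 4 I-KO libraries were below all lox/lox libraries (log2 difference -0.3, exact permutation p = 0.114, adjusted p = 0.285). Without the library labelled I-KO replicate 4, whose Ppara level was above that of the controls, the log2 difference was -0.18. None of the 5 pairs passed.

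**Figure D3:**
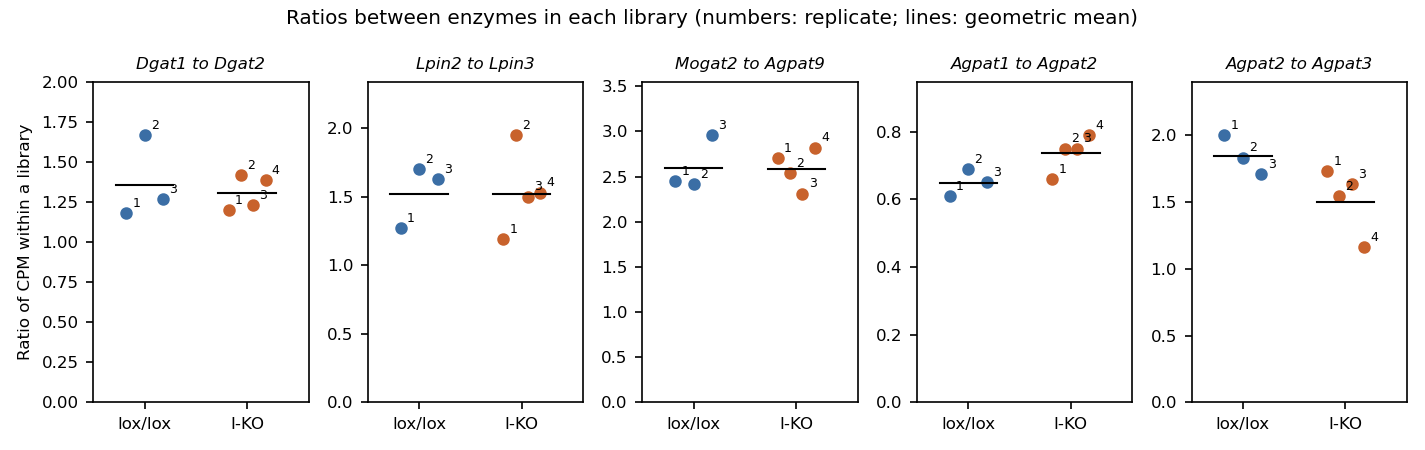
Ratio of CPM between the enzymes of each of the 5 pairs within a library (y axis from 0), by genotype, with points numbered by replicate and a line for the geometric mean. The genotypes overlap in each pair, and the lowest Agpat2 to Agpat3 ratio, 1.16, is I-KO replicate 4.

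Differences between mice of 1 genotype were shared by many of the 10 genes. In lox/lox replicate 1, 8 of the 10 were above their mean over all libraries, in I-KO replicate 1 also 8, and in I-KO replicate 3 all 10. The counts were 1 in lox/lox replicates 2 and 3, 2 in I-KO replicate 2 and 1 in I-KO replicate 4. Columns of the deposited table did not sum to the same total, and the totals, in units of 1e6 CPM, were 1.046, 0.993 and 0.97 in lox/lox libraries and 1.029, 1.017, 1.099 and 0.973 in I-KO libraries. The enterocyte marker sum was likewise highest in I-KO replicates 3 and 1, with 51939 and 50834 CPM, followed by lox/lox replicate 1 with 46744 CPM. Apoa4, the largest part of the sum, was highest in I-KO replicate 1 (31199.8 CPM) and next in I-KO replicate 3 (29364 CPM). Without Apoa4 the sum was highest in I-KO replicate 3 (22575 CPM) and lox/lox replicate 1 (21414 CPM). I-KO replicate 1 (19634 CPM) was then below I-KO replicate 4 (20446 CPM). Single markers did not share an order of libraries. In I-KO replicate 1 Sis, the sucrase-isomaltase gene, was lowest of all libraries (1735 CPM). Vil1, the villin gene, had 3099 CPM there, and only I-KO replicate 3 was higher (3383 CPM). With columns scaled to equal totals, the counts were 8, 2 and 3 in lox/lox libraries and 8, 2, 6 and 3 in I-KO libraries. This order of libraries was noticed in the values, and the part of column totals and of enterocyte share in it was not tested. Under equal totals 6 of the 10 genes, in place of 8, had a higher mean in I-KO, beside 39.4% of all genes tested, since Mogat2 and Agpat9 then had a log2 fold change of -0.02.

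**Figure D4:**
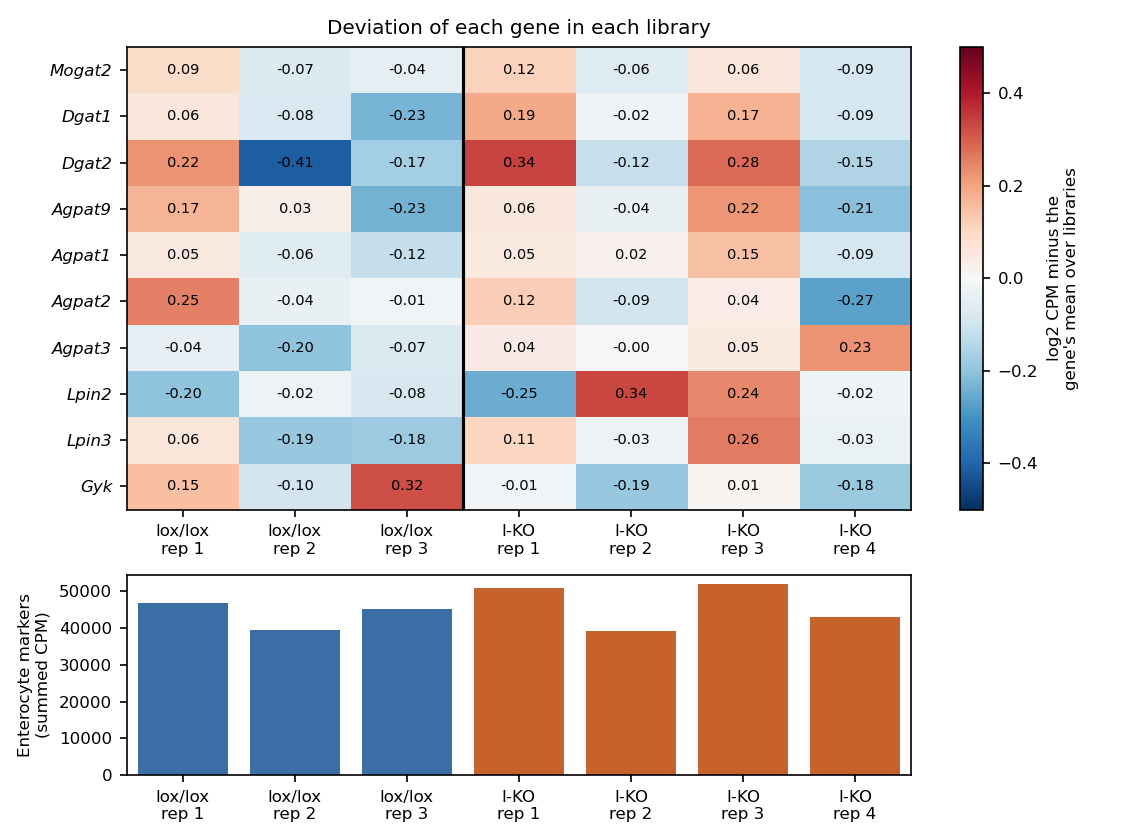
Upper panel, log2 CPM of each gene in each library minus its mean over the 7 libraries (red above, blue below); lower panel, summed CPM of 8 enterocyte markers, at least 50.5% of it Apoa4, with the y axis from 0. Lox/lox replicate 1 and I-KO replicates 1 and 3 have most of the red cells, while Agpat3, Lpin2 and Gyk follow other orders of mice.

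The genes around these enzymes were compared through a list of 53 others, of which 50 were in the table and tested, and 0 passed the adjusted threshold. Of the 50, 25 had a higher and 25 a lower mean in I-KO, and their median difference was -0.004 on the log2 scale. An unadjusted p under 0.05 was found for 1 higher and 4 lower genes, 10% of the list beside 4.74% of all genes tested, and 5 (10%) had no overlap between genotypes, beside 6.19% of all genes tested. The other genes of the glycerol-phosphate route (10 tested) were higher in 3 and lower in 7, those of acyl-CoA supply (12 tested) higher in 5 and lower in 7, and those of droplet formation and lipolysis (9 tested) higher in 6 and lower in 3. Of 10 genes that lead phosphatidate and diacylglycerol to other lipids, 7 were higher and 3 lower, with 0 at an unadjusted p of 0.05. Chylomicron assembly, with the microsomal transfer protein gene Mttp and apolipoprotein genes, had 3 higher and 5 lower of 8, also with 0. Of the monoacylglycerol route, 1 other gene was tested, the lipase gene Mgll, and Mogat1, Gpat2 and Fitm1 were not analysed here.

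Aqp3, which encodes a channel for water and glycerol, had 20.6, 16.1 and 21.7 CPM in lox/lox libraries and 14.4, 9.94, 14.8 and 9.42 CPM in I-KO libraries. All I-KO libraries were below all lox/lox libraries (log2 fold change -0.66, standard error 0.18, unadjusted p = 0.00474, adjusted p = 0.791, limma). Fabp1, a cytosolic fatty acid carrier, had 3380.1, 3398 and 4228 CPM in lox/lox libraries and 3215, 2109, 2544 and 2111 CPM in I-KO libraries. Its genotypes did not overlap either (log2 fold change -0.57, standard error 0.16, unadjusted p = 0.00621, adjusted p = 0.822, limma).

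Fitm2, whose product helps to bud lipid droplets from the endoplasmic reticulum, had 9.97, 7.68 and 10.4 CPM in lox/lox libraries and 6.94, 6.84, 5.61 and 6.66 CPM in I-KO libraries. It was lower in each I-KO library than in each lox/lox library (log2 fold change -0.46, standard error 0.12, unadjusted p = 0.00377, adjusted p = 0.79, limma, and p = 0.0286 in the exact permutation test, the smallest this test can give). Plin2, a droplet coat protein gene, had 111, 97.8 and 117 CPM in lox/lox libraries and 106, 73.7, 73.4 and 68.6 CPM in I-KO libraries. It differed by -0.45 on the log2 scale (standard error 0.15, unadjusted p = 0.0156, adjusted p = 0.954, limma), with overlap through I-KO replicate 1. Pnpla2, which encodes the triglyceride lipase ATGL, was the one higher gene at this threshold, with 115, 116 and 124 CPM against 130.2, 125, 148 and 144 CPM (log2 fold change 0.21, standard error 0.09, unadjusted p = 0.0452, adjusted p = 0.954, limma). Bscl2, the seipin gene of droplet assembly, fell outside the rule for naming genes and is named after its values were seen, as the fifth gene without overlap. It had 27.6, 29.3 and 27.2 CPM in lox/lox libraries and 30.3, 29.3, 30.0 and 29.6 CPM in I-KO libraries, and the nearest libraries of the genotypes were equal after rounding. Its log2 fold change was 0.09 (standard error 0.07, unadjusted p = 0.258, adjusted p = 0.954, limma, and p = 0.0286 in the exact permutation test). Exact permutation p-values were not adjusted over the list, and were 0.0571 for Aqp3, Fabp1 and Pnpla2 and 0.0857 for Plin2. The median absolute log2 fold change was 0.163 for the 10 enzymes, 0.086 for the 50 surrounding genes and 0.082 for all genes tested. Many of the 10 enzymes shared their differences between mice, so their fold changes were not independent. These medians were not compared by a test.

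**Figure D5:**
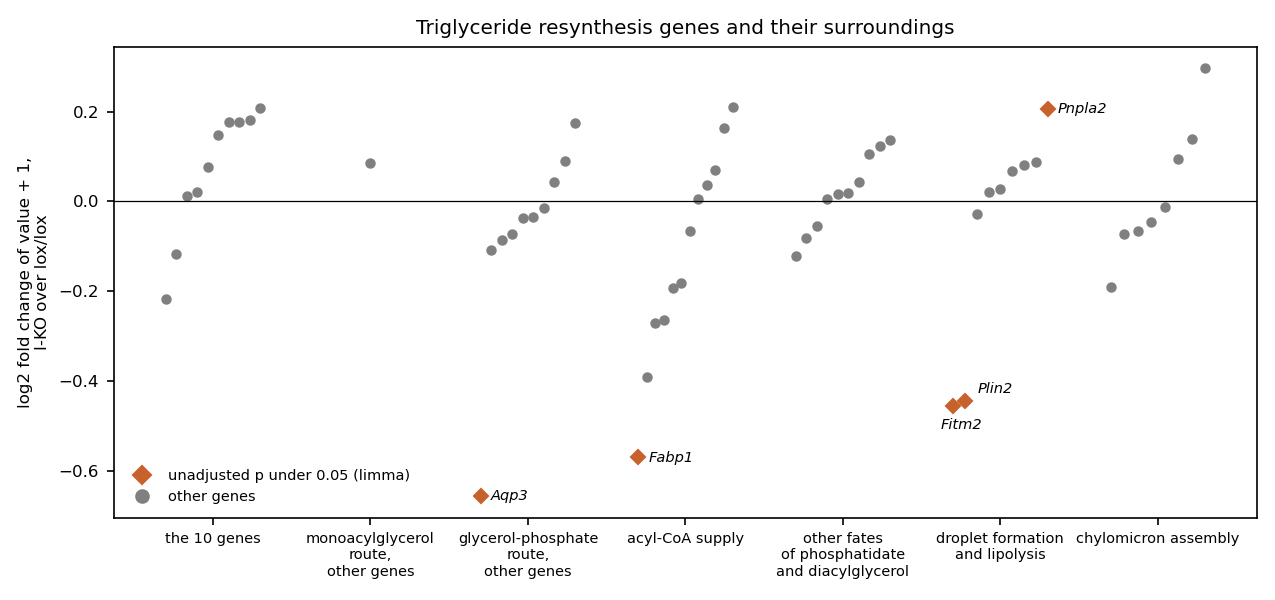
Log2 fold change of CPM + 1, I-KO over lox/lox, for the 10 enzymes and for the 50 surrounding genes by role, with diamonds for an unadjusted p below 0.05 in limma. The 10 enzymes lie between -0.22 and 0.21 with no diamond, and the named diamonds are Aqp3, Fabp1, Fitm2, Plin2 and Pnpla2.

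PPARα binds DNA with its partner RXR at pairs of a half-site, AGGTCA, with a base between them. RefSeq promoter windows, from 250 bases before to 50 bases after a start site, were at hand for 11 start sites of 7 of the genes, Agpat9, Agpat1, Agpat2, Agpat3, Lpin2, Lpin3 and Gyk. Searched on both strands, the half-site was in 1 of the 11 windows (9.09%), beside 16.3% of all 32851 windows. A pair of half-sites 1 base apart, with any base at the fourth position of each, was in 0 of the 11 and in 0.381% of all windows. The single half-site is shown because it is the one match among these genes, and Agpat1 (log2 fold change 0.08) did not pass the test. It lies within the gene, outside its annotated exons, 50 to 21 bases before the second annotated start site of Agpat1 (chr17:34608964-34608993, plus strand, GRCm38.p6), and the capitals mark the half-site, which reads AGGTCA on the opposite strand.
Agpat1 second start: actgtttccttgataTGACCTctcacacaa
A match in letters is not a binding site, and these windows hold only the bases next to the start sites.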

How the data were processed

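Duodenal RNA of 3 Ppara lox/lox and 4 Ppara I-KO mice was sequenced with 100 base single reads from stranded mRNA libraries, and groups come from the genotype in the labels. The authors deposited 1 table of signal values, CPM of an adjusted library size to 2 decimals. The submitters' processing notes name FastQC 0.11.2, TopHat2 2.0.13, Picard 1.80, HTSeq 0.6.1, edgeR and mm10. A last line without a gene name was dropped. Depth was taken from the value of 1 read in each column. Whole reads were recovered for under 95% of low values in 5 libraries, by a limit tighter than the rounding of the values there. No test on counts was run, by that limit and because the deposited values are normalized. Within the rounding of the values, 100% of low values in each library fitted whole reads, so the limit does not show that counts were beyond recovery.

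Genotype was the single term of a limma model (version 3.58.1, R 4.3.3) of log2(CPM + 1), and p-values are two-sided with Benjamini-Hochberg adjustment over 13399 genes. Where nothing else is said, n is 3 and 4 mice. Single genes and ratios were compared by an exact permutation test. The fit was tested on simulated data. Of the symbols, 13895 matched GENCODE M21 (GRCm38) directly and 756 through RefSeq synonyms. No pair of replicates was alike within sampling noise (lowest chi-square over degrees of freedom 14.6).

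The 10 genes and the lists were chosen with earlier results of these data known. Of the surrounding genes, those past the adjusted threshold were to be named, or else, as here, up to 15 with an unadjusted p under 0.05. Markers were to be given as sums, and the single markers named above fall outside that rule. Alternatives were a pseudocount of 0.5, no filter, scaling by median-of-ratios or by column totals, an intensity trend with and without a robust fit, sample quality weights, the replicate block, unadjusted p and each library left out. The other gene length and the enterocyte sum without Apoa4 were added after seeing the data. Figures were made with Python 3.11.15 and matplotlib 3.10.9.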

Additional observations from a re-analysis of the deposited data

Results flagged for a closer look

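Some quantities had 1 library far from the others of its genotype. Of 28 quantities searched in the 4 I-KO libraries, 3 stood apart beyond Dixon's 95% limit, where chance gives about 1.4, and none of them was one of the 10 enzymes or a ratio between them. All 3 stood apart in I-KO replicate 1. Plin2 had 106 CPM there and at most 73.7 CPM in the other I-KO libraries (gap over range 0.862). The pancreatic acinar marker sum was 350.4 CPM there and at most 10.5 CPM in the others (0.994). The Brunner gland and stomach marker sum, which rests on Tff2 as the 1 listed marker of 5 in the table, was 1.2 CPM there and at most 0.05 CPM in the others (0.958).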

How the results depend on the processing

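The count of the 10 enzymes past the threshold was 0 under each alternative run, unadjusted p included, and the smallest adjusted p of any of them was 0.638. Across 10 genes and 15 alternatives, 141 of 150 log2 fold changes kept their sign and 9 did not. The sign changed for Mogat2 with column totals (-0.02) and for Agpat9 with column totals (-0.02) and with sample quality weights (-0.01). With 1 library left out, Mogat2 was between -0.02 and 0.06 and Agpat9 between -0.09 and 0.11. Of the log2 ratio differences, Dgat1 to Dgat2 was then between -0.16 and 0.09, Lpin2 to Lpin3 between -0.13 and 0.12, Mogat2 to Agpat9 between -0.06 and 0.09, Agpat1 to Agpat2 between 0.15 and 0.24, and Agpat2 to Agpat3 between -0.37 and -0.18. Among all genes, 4 were called, with 635 at an unadjusted p, 9 with an intensity trend and robust fit, 12 with sample quality weights, and between 3 and 5 with a library left out, and the cause was not tested. Of the surrounding genes 0 were called under each alternative except unadjusted p, with 5.

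No pairing of mice by replicate number was seen, as deviations of same-numbered libraries correlated with r of -0.014, 0.184 and -0.009. Deviations from the means of 3 and 4 libraries are tied to each other, so these values cannot exclude a pairing. With the replicate block, which was fitted without I-KO replicate 4, 3 genes were called among all and 0 of the 10. Leaving out that library without a block gave 5 genes among all. Not every library correlated best with its own number. At 2239 or more reads per gene and library, counting error was at most 2.1% of a value of the 10 genes.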
